A study of Mus musculus with 12 samples.

Results

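The untreated control cultures of 2 experiments on primary mouse neurons were compared with each other: the 3 KA control libraries, made beside neurons given kainic acid, and the 3 OGD control libraries, made beside neurons put through oxygen-glucose deprivation. They are 6 of the 12 RNA-sequencing libraries of the study and were chosen by their sample titles alone. All are of primary neurons of the C57Bl6 strain. The study asked how gene expression changes in acutely injured neurons, and its other 6 libraries are the injured cultures, 3 with KA at 100 µM, an agonist of kainate and AMPA-type glutamate receptors, and 3 with OGD, a culture model of ischaemia. The labels used here give the age of the animals, the brain region, the days in culture and the medium for neither control group. Each control group belongs to 1 experiment, so the effects of experiment and of control group cannot be told apart, and every difference below is one between these cultures. Nothing in the labels says that the 3 libraries of a group came from separate cultures or animals, so p-values here speak of the spread among libraries and no more, and that spread may be technical.

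Neurons in culture form synapses and fire spontaneously, and calcium that enters during firing switches on genes in waves. The first wave, the immediate early genes, encodes mostly transcription factors such as the Fos, Egr and Nr4a proteins and is driven by CREB and by the serum response factor. The second wave, the late activity-regulated genes, encodes secreted and synaptic proteins such as the neurotrophin BDNF. Cultures of this kind are mixtures of excitatory neurons, which release glutamate, and inhibitory neurons, which make GABA. They also mature in the dish: chloride exporters, NMDA receptor subunits of the adult type and neurofilaments are gained with time. Neurons meet most of their energy need by oxidative phosphorylation fed by glucose that enters through the transporter GLUT3.

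The deposited table held 22899 genes, of which 13139 had enough counts to be tested. Total counts per library were 16054338, 21142267 and 17692506 in KA control and 13260609, 17324550 and 17003235 in OGD control. Log2 CPM, the counts scaled to library size, of the tested genes correlated across genes with r between 0.9957 and 0.9962 among KA control libraries and between 0.9945 and 0.9954 among OGD control libraries, and with r between 0.959 and 0.962 from one control group to the other. The most abundant 100 genes held 16.1% to 16.2% of the counts in KA control and 17.6% to 17.9% in OGD control, and the TMM factors that correct for such differences were 1.10 to 1.11 in KA control and 0.963 to 0.988 in OGD control. Pan-neuronal markers, of which 1 was higher and 11 lower of 16 tested, summed to 8724 to 8805 CPM in KA control and 9976 to 10540 CPM in OGD control, and Tubb3, a neuronal tubulin, was at 2370.1, 2325 and 2384 CPM and 1586, 1619 and 1502 CPM in them. Rbfox3, which encodes the defining neuronal marker NeuN, had hardly any counts, at 0.225, 0.429 and 0.204 CPM in KA control and 0.229, 0.119 and 0.428 CPM in OGD control. Jund, Lhx6, Meis2, Vegfa and Cebpb were listed at 0 in all 12 libraries and are not interpreted. Levels of a gene, or summed over a list, are compared below between groups and never between genes.

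The 2 control groups differed at most of the genes tested. By edgeR's quasi-likelihood test with Benjamini-Hochberg adjustment over all tested genes, 4532 genes (34.5%) were higher and 4490 (34.2%) lower in KA control than in OGD control at an adjusted p under 0.05, together 9022 genes or 68.7%. By over 2-fold, 874 were higher and 1218 lower, together 15.9% of the genes tested. At 9588 genes (73.0%) the 3 libraries of one group did not overlap the 3 of the other. The median log2 fold change over all tested genes was 0.0035, and the common biological coefficient of variation was 0.0402, and small differences passed the test. Counts of list members below are to be read against these shares. Of the genes singled out by the rule given in the methods, Slc17a7, Bcl11b, Dcx, Map2, Rbfox3, Mki67 and Hk1 had control groups that overlapped and Lhx6 was at 0. The other genes it picked had none, and overlap is mentioned below only where it bears on a value. Scaling to total counts in place of TMM raised every log2 fold change by about the same amount, with a median of 0.189 over all tested genes, and gave 6155 genes higher and 3132 lower. On that scale the medians of 12 of the 46 gene lists examined changed sign, all of them lists with a median between -0.19 and 0.

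The genes with the largest drop under the naming rule of the methods were, with 1 exception, activity-regulated. Outside that rule the lowest log2 fold change of any tested gene was -7.47. Among genes with a mean of at least 2 on the log2 CPM scale, the 8 largest folds below OGD control belonged to Fosb, Klf4, Gem, Slc15a2, Csrnp1, Rrad, Gadd45g and Gadd45b. Fosb and Klf4 encode transcription factors, Csrnp1 a nuclear protein of the same early wave, Gem and Rrad small GTPases that inhibit calcium channels, and Gadd45b and Gadd45g growth arrest proteins. Slc15a2 encodes a peptide transporter and had 1.07, 0.859 and 1.33 CPM in KA control, against 23.99, 23.6 and 28.96 CPM in OGD control (log2 change -4.57, SE 0.15, edgeR adjusted p = 2.32e-21). The log2 change is the log2 fold change of KA control over OGD control, and SE its standard error. In the treated libraries Slc15a2 was at 19.4, 22.2 and 24.03 CPM in KA and 22.7, 21.4 and 25.97 CPM in OGD, so the KA control libraries stood alone in this gene.

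Promoters are printed for 4 immediate early genes that were more than 10-fold lower in KA control, so that the letters behind the motif counts can be read. They are the 250 bases before the gene start in RefSeq on GRCm38.p6, which is the mm10 build named in the submitters' processing notes: chr12:85473640-85473889 on the plus strand for Fos, chr7:19310046-19310295 on the minus strand for Fosb, chr19:4989972-4990221 on the minus strand for Npas4 and chr15:101266596-101266845 on the plus strand for Nr4a1. Capitals mark the CRE half-site TGACG, or CGTCA where it lies on the other strand, the core of the element that CREB binds.
Fos: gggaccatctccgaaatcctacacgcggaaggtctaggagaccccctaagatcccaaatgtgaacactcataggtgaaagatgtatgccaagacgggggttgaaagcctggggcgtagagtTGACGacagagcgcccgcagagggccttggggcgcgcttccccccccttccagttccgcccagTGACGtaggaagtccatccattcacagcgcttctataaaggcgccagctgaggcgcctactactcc
Fosb: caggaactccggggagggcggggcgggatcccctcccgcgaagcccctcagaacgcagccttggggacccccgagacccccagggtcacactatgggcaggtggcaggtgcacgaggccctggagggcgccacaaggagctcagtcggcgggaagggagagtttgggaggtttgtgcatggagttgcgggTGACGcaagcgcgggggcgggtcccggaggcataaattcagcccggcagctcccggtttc
Npas4: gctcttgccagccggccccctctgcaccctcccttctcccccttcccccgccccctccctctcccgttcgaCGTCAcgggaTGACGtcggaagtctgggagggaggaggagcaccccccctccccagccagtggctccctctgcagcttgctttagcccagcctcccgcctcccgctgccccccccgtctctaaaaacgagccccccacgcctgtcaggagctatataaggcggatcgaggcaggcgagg
Nr4a1: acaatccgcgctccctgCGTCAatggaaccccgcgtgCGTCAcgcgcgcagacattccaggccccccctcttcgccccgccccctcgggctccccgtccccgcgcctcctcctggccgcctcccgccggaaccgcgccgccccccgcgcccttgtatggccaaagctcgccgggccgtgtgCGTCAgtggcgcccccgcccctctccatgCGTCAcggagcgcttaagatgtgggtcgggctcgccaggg
Fos held 2 half-sites, Fosb 1, Npas4 2 and Nr4a1 4. The full palindromic site TGACGTCA, the CArG box bound by the serum response factor and the AP-1 site TGANTCA were also searched on both strands, and none of the 3 was found in these windows. Bases further upstream were not searched, so sites there would be missed. The Npas4 window lies inside the longer Npas4 gene of GENCODE, whose position is given below. The full site contains the half-site, so the counts overlap. Of the listed immediate early genes 27 matched the promoter table by symbol, with 38 promoters in all since some genes have several starts that share bases. A half-site lay in 26 of the 38 promoters (68.4%), in 13 of 39 promoters (33.3%) of late activity-regulated genes, in 26.6% of the 12267 promoters of tested genes and in 17.8% of all 32851 promoters. The full site lay in 3 of the 38 (7.90%), in 2.78% of promoters of tested genes and in 1.55% of all. The CArG box lay in 5 promoters of 2 genes (13.2%), in 1.18% of promoters of tested genes and in 1.47% of all. The AP-1 site lay in 1 (2.63%), in 4.08% of promoters of tested genes and in 6.75% of all. A match is a description of letters and not a bound site.

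Immediate early genes were almost all lower in KA control. Of 34 tested members, 32 were lower and 2 higher, with a median log2 fold change of -3.22. Fos, a subunit of the AP-1 transcription factor, was counted at 72.7, 84.7 and 89.8 CPM in KA control, against 1192, 1245 and 1207 CPM in OGD control (log2 change -3.88, SE 0.058, edgeR adjusted p = 3.39e-29). Its highest KA control library was below its lowest OGD control library by more than 10-fold. Npas4, a transcription factor that answers to calcium and sets inhibitory synapse number, had 62.4, 67.2 and 72.7 CPM in KA control and 961, 1018 and 1004 CPM in OGD control (log2 change -3.88, SE 0.06, edgeR adjusted p = 4.37e-29). Fosb, the AP-1 subunit with the largest fold, averaged 13.4 ± 3.64 CPM in KA control and 765 ± 46.00 CPM in OGD control (SD, n = 3 each), 56.6-fold lower (log2 change -5.82, SE 0.10, edgeR adjusted p = 1.80e-28). None of the 3 genes had overlapping groups.

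The same direction was found across the families of this first wave. Junb, another AP-1 subunit, had 20.1, 25.3 and 24.8 CPM in KA control and 435, 473 and 440.4 CPM in OGD control (log2 change -4.26, edgeR adjusted p = 1.80e-28), and Jun had 47.4, 57.9 and 54.4 CPM and 335, 366 and 364 CPM in them (log2 change -2.73, edgeR adjusted p = 7.75e-24). The zinc finger factor Egr1 was at 12.1, 13.2 and 12.2 CPM in KA control, against 104, 116 and 117 CPM in OGD control (log2 change -3.16, edgeR adjusted p = 2.56e-25). Nr4a1, an orphan nuclear receptor, was at 62.5, 73.4 and 74.5 CPM in KA control, against 831, 897 and 844 CPM in OGD control (log2 change -3.61, edgeR adjusted p = 5.00e-27). All of these were called lower and had no overlap between groups. Klf4 had 2.13, 3.43 and 2.81 CPM in KA control and 109, 121 and 120.0 CPM in OGD control, 40.9-fold lower (log2 change -5.35, edgeR adjusted p = 2.44e-27). Atf3, a stress-responsive member of the ATF family, had 6.63, 6.96 and 7.56 CPM in KA control and 74.2, 74.4 and 70.8 CPM in OGD control (log2 change -3.37, edgeR adjusted p = 3.16e-26). Arc, which encodes a protein that drives AMPA receptor endocytosis, had 0.0562, 0.0859 and 0.102 CPM in KA control and 0.993, 0.656 and 0.977 CPM in OGD control and was lower (edgeR adjusted p = 5.62e-07), with so few counts in KA control, 1 or 2 per library, that no fold is given. The 2 members called higher were Klf6 (log2 fold change 0.16) and Klf10 (0.40), both Krüppel-like factors, named here after their values were seen. Under total-count scaling 31 members were lower and the median was -3.04.

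Late activity-regulated genes followed. All but 1 of 46 tested members were lower in KA control, with a median log2 fold change of -1.83, and 0 were higher. The exception was Inhba, a subunit of activin, with 49.9, 48.4 and 48.4 CPM in KA control and 48.3, 45.4 and 48.1 CPM in OGD control. Bdnf, the neurotrophin gene, had 7.92, 7.34 and 8.43 CPM in KA control, against 40.6, 36.8 and 42.8 CPM in OGD control (log2 change -2.35, SE 0.082, edgeR adjusted p = 8.87e-21). Nptx2, a secreted pentraxin that clusters AMPA receptors, had 45.7, 47.5 and 51.1 CPM in KA control, against 329, 308 and 291 CPM in OGD control (log2 change -2.68, SE 0.069, edgeR adjusted p = 4.85e-24). Groups were far apart in both genes. Pcsk1, a protease that matures neuropeptides, had 47.02, 51.3 and 52.8 CPM in KA control and 324, 338 and 339 CPM in OGD control (log2 change -2.73, edgeR adjusted p = 1.21e-27). Sik1, a kinase that restrains CREB coactivators, had 95.1, 95.02 and 103 CPM in KA control and 537, 574 and 565 CPM in OGD control (log2 change -2.52, edgeR adjusted p = 2.44e-27). Nrn1, an anchored growth factor of excitatory synapses, had 34.5, 42.4 and 42.5 CPM in KA control and 288, 308 and 326 CPM in OGD control (log2 change -2.95, edgeR adjusted p = 8.80e-26).

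**Figure D1:**
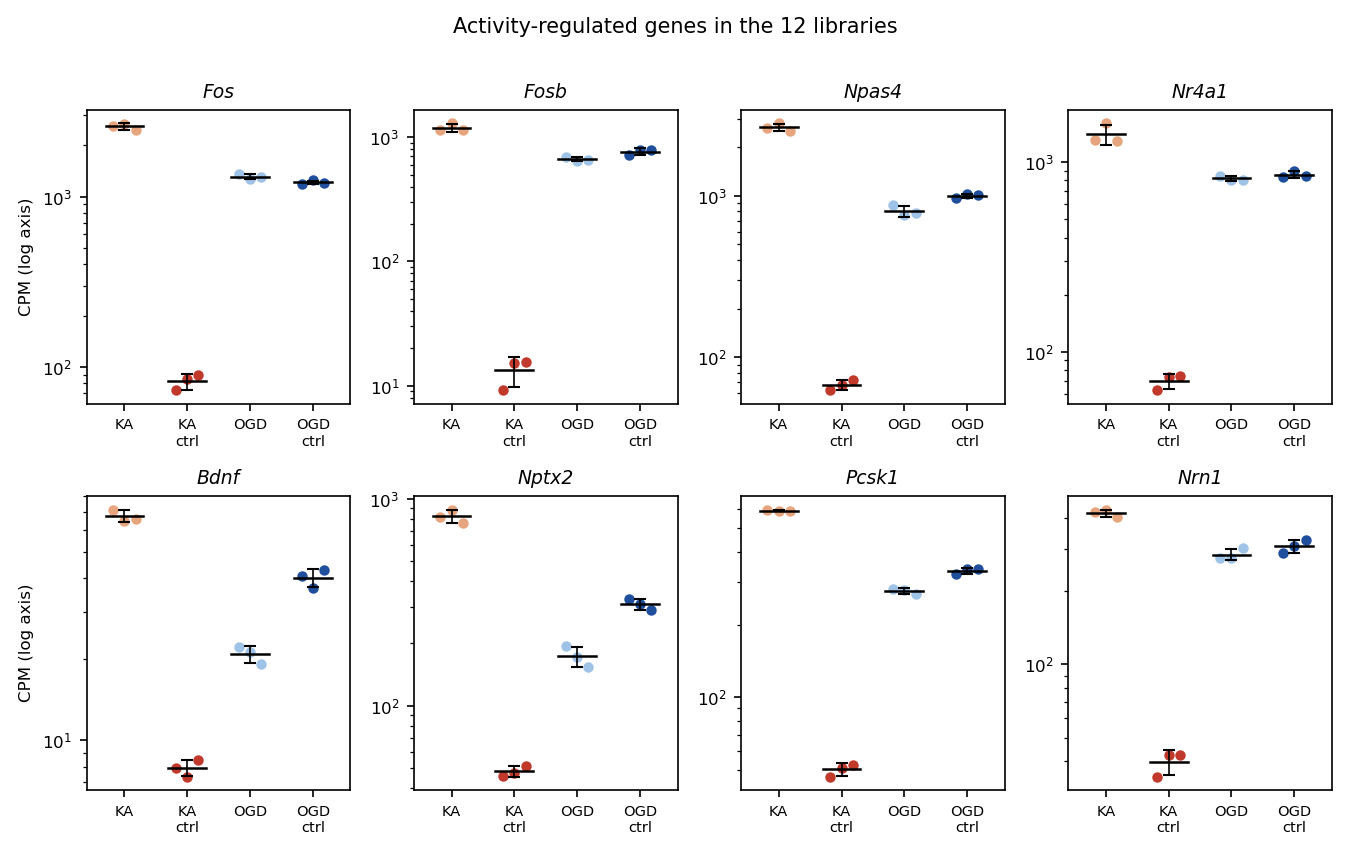
Normalised counts in CPM on a log axis for 8 activity-regulated genes in the 12 libraries, grouped as KA, KA control, OGD and OGD control. Points are libraries, bars are the mean and the SD of 3. The KA control points lie lowest in every panel (Fos 82.4 CPM on average, against 1215 CPM in OGD control).

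Set beside all 12 libraries, the KA control libraries were the lowest in most activity genes, and the KA libraries had the highest sums. The 3 KA control libraries lay below all 9 others in 31 of the 34 immediate early genes and 44 of the 46 late genes, against 20.9% of all genes tested. Summed over the immediate early genes, counts were 17300 to 19140 CPM in KA against 1674 to 1807 CPM in KA control, and 8862 to 9214 CPM in OGD against 9321 to 9975 CPM in OGD control. Late genes summed to 19820 to 20550 CPM in KA against 4981 to 5180 CPM in KA control, and to 10970 to 11090 CPM in OGD against 13320 to 13890 CPM in OGD control. For both lists the OGD and OGD control sums lay between those of KA control and those of KA. No test was made over these 4 groups, since treatment and experiment cannot be separated there.

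Upstream signalling genes and genes known to fall with activity had members on both sides. Among 26 CREB coactivators and calcium-signalling kinases, 8 were higher and 8 lower in KA control (median log2 fold change -0.0079, or 0.177 under total-count scaling). Crebbp, the CREB-binding coactivator, had 78.4, 72.8 and 76.6 CPM in KA control and 169, 179 and 183 CPM in OGD control (log2 change -1.22, edgeR adjusted p = 4.44e-19). Rps6ka5, a kinase that phosphorylates CREB and histone H3, had 36.7, 37.5 and 36.6 CPM in KA control and 14.6, 16.8 and 16.9 CPM in OGD control (log2 change 1.19, edgeR adjusted p = 1.37e-14). So 1 coactivator and 1 kinase of the same route moved in opposite directions. Of 13 genes listed as falling with activity, 1 was higher and 7 lower (median -0.14, or 0.0483 under total-count scaling). Bcl6, a transcriptional repressor of that list, had 27.6, 26.1 and 26.5 CPM in KA control and 58.4, 58.6 and 58.5 CPM in OGD control (log2 change -1.13, edgeR adjusted p = 2.18e-17).

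Markers of neuron types differed as well, and among the subtype lists the inhibitory one had the lowest median. All 14 pan-inhibitory markers were lower in KA control, with a median log2 fold change of -1.42 and a summed level of 1257 to 1281 CPM in KA control, against 3554 to 3707 CPM in OGD control. Gad2, the membrane-associated enzyme that makes GABA, had 122, 122 and 118 CPM in KA control, against 649.5, 647 and 661 CPM in OGD control (log2 change -2.44, SE 0.045, edgeR adjusted p = 1.96e-27). Gad1, the cytosolic form, had 453, 456 and 448 CPM in KA control, against 1369, 1299 and 1265 CPM in OGD control (log2 change -1.53, SE 0.043, edgeR adjusted p = 3.29e-23). Slc32a1, the transporter that loads GABA into vesicles, had 92.9, 93.99 and 97.1 CPM in KA control, against 300.3, 296 and 284 CPM in OGD control (log2 change -1.63, SE 0.052, edgeR adjusted p = 9.37e-22). No gene of the 3 had overlapping groups, and the fold ranged from 2.90 to 5.41. Dlx2, a transcription factor that specifies these neurons, was lower as well, and averaged 20.3 CPM in KA control and 60.8 CPM in OGD control. In bulk RNA, fewer cells of a type and less RNA of it per cell cannot be told apart. Sums of fibroblast, ependymal and choroid plexus markers, given below, were lower in KA control too, and the part of such cells in this result was not tested.

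Subclasses of inhibitory neurons shared the direction. Of 15 markers of interneurons from the medial ganglionic eminence, 12 were lower and 1 higher (median -0.68). Sst, the neuropeptide somatostatin, had 274, 267 and 283 CPM in KA control and 813, 816 and 739 CPM in OGD control (log2 change -1.52, edgeR adjusted p = 2.07e-22), and Npy, neuropeptide Y, had 68.9, 69.8 and 73.2 CPM and 205, 214 and 203 CPM (log2 change -1.56, edgeR adjusted p = 2.05e-22). Sst, Npy and Tac1 also stand in the late activity list, and without them 9 of 12 markers were lower (median -0.63). Nkx2-1, the factor that specifies this lineage, averaged 0.540 CPM in KA control and 2.60 CPM in OGD control (a log2 change of -2.24). The gene called higher was Satb1, a chromatin organiser, at 6.60 CPM in KA control and 2.81 CPM in OGD control. Of 14 markers of caudal origin 9 were lower and 1 higher (median -0.53). Among them Reln, the secreted glycoprotein reelin, had 274, 226 and 248 CPM in KA control and 789, 781 and 776 CPM in OGD control (log2 change -1.65, edgeR adjusted p = 3.71e-16). Striatal projection neuron markers were lower in 9 of 14 cases and higher in 1 (median -0.64). Penk, the enkephalin precursor, had 21.7, 18.5 and 20.4 CPM in KA control and 105, 105 and 96.4 CPM in OGD control (log2 change -2.34, edgeR adjusted p = 3.85e-22). Penk and Tac1 of this list are activity-listed too, and 7 of the 12 others were lower. Six3, a striatal and forebrain homeobox factor, had 13.1, 11.9 and 12.98 CPM in KA control and 42.2, 43.8 and 45.9 CPM in OGD control (log2 change -1.803, edgeR adjusted p = 4.80e-19).

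Pan-inhibitory and medial markers were low in both groups of the KA experiment. In 13 of 14 pan-inhibitory markers, Sp8 being the exception, the 6 libraries of KA and KA control lay below the 6 of OGD and OGD control, and this held for 12 of the 15 medial markers, against 7.92% of all genes tested. In the caudal and the striatal list the count was 5 of 14 each. For immediate early genes the same count was 0 of 34, and for late genes 4 of 46. Gad1 averaged 602 CPM in KA against 452 CPM in KA control, and 1144 CPM in OGD against 1311 CPM in OGD control. Gad2 averaged 244 CPM in KA against 121 CPM in KA control, and 439 CPM in OGD against 653 CPM in OGD control. No test was made on this pattern, which is a description of the 12 libraries.

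Excitatory markers went in both directions, but more were lower than higher. Of 20 tested, 4 were higher and 11 lower in KA control (median -0.26). By over 2-fold, 7 were lower and 0 higher. Slc17a7, which encodes the main cortical vesicular glutamate transporter VGLUT1, had 139, 127 and 141 CPM in KA control and 146, 145 and 129.7 CPM in OGD control and was not called (log2 change -0.044, SE 0.054, edgeR adjusted p = 0.483). The groups overlapped, and the call turned both ways with the processing: under total-count scaling Slc17a7 was called higher (0.14, edgeR adjusted p = 0.0262) whereas after a length trend was taken out it was called lower (-0.14, edgeR adjusted p = 0.027). Slc17a6, the transporter VGLUT2, had 67.1, 76.4 and 70.2 CPM in KA control, against 139.7, 147 and 154 CPM in OGD control (log2 change -1.04, SE 0.055, edgeR adjusted p = 2.17e-16). Bcl11b, a determinant of subcerebral neurons, had 5.11, 4.12 and 4.45 CPM in KA control and 4.89, 5.55 and 5.86 CPM in OGD control and was not called (edgeR adjusted p = 0.115). Neurod6 and Emx1, factors of cortical excitatory neurons, were higher with log2 fold changes of 0.38 and 0.76, and Neurod1 with 0.24. Neurod2, which acts downstream in the same lineage, had 221, 235 and 234 CPM in KA control and 451, 522 and 520.0 CPM in OGD control (log2 change -1.11, edgeR adjusted p = 1.09e-17).

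**Figure D2:**
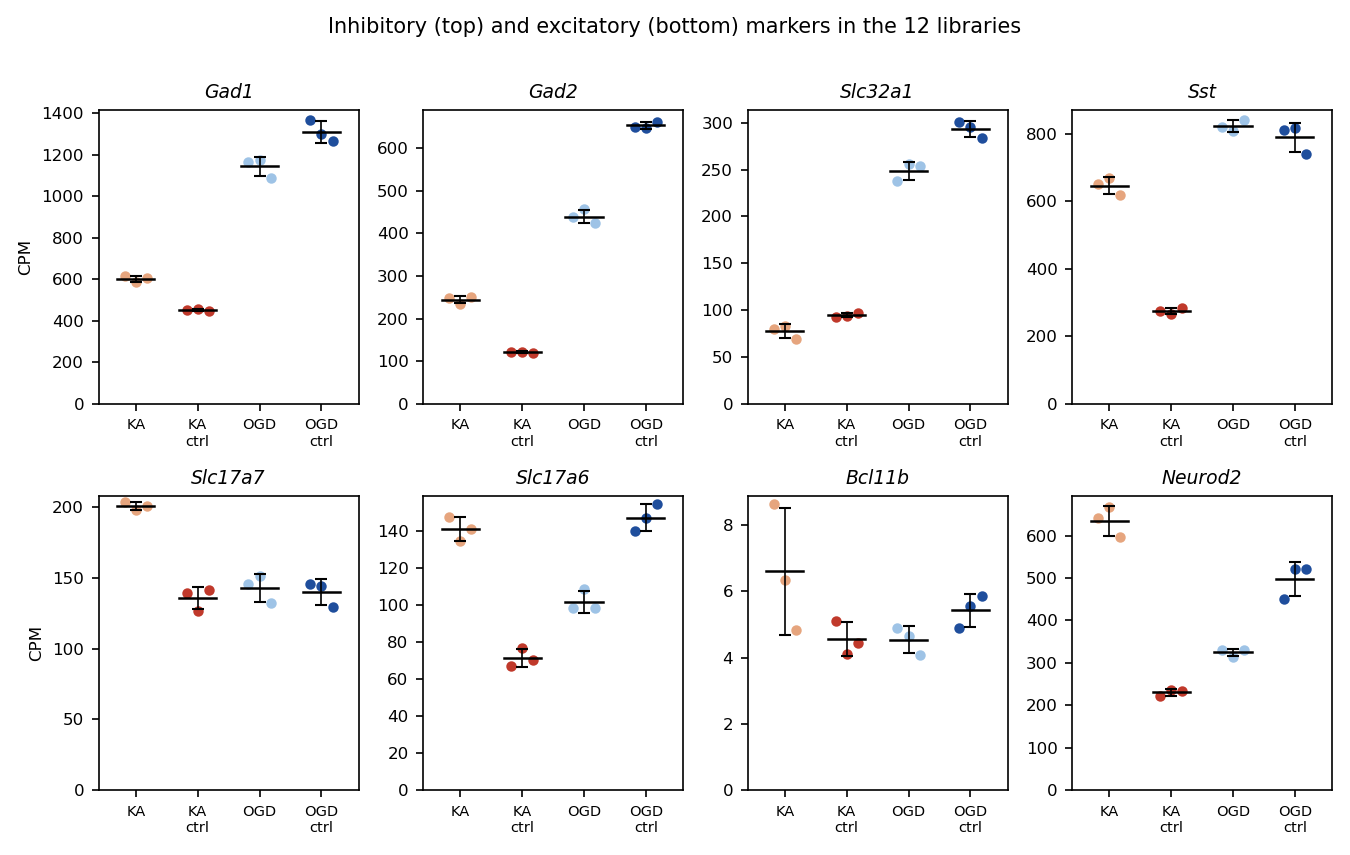
CPM of 4 inhibitory markers (top) and 4 excitatory markers (bottom) in the 12 libraries, grouped as KA, KA control, OGD and OGD control, with points for libraries and bars for the mean and SD of 3. The inhibitory panels separate both KA-experiment groups from both OGD-experiment groups, and Slc17a7 overlaps between the control groups.

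Over the whole excitatory list of 20, the 6 KA-experiment libraries lay above the 6 OGD-experiment libraries in 5 markers and below them in 2, against 8.04% above and 7.92% below over all tested genes. Neurod6 averaged 1086 CPM in KA against 620.1 CPM in KA control, and 338 CPM in OGD against 476 CPM in OGD control. Layer markers gave no single direction. Upper-layer genes were higher in 2 and lower in 7 of 11 cases (median -0.35), deep-layer and subplate genes higher in 5 and lower in 9 of 17 (median -0.46), and hippocampal genes higher in 4 and lower in 5 of 10. Cux2, of the upper layers, had 60.3, 66.8 and 69.2 CPM in KA control and 186, 167 and 165 CPM in OGD control (log2 change -1.40, edgeR adjusted p = 2.07e-19). Fezf2, which specifies subcerebral projection neurons, had 81.4, 83.00 and 87.8 CPM in KA control and 205, 224 and 209.7 CPM in OGD control (log2 change -1.34, edgeR adjusted p = 2.97e-19). Crym and Ntsr1, deep-layer genes, were higher with log2 fold changes of 1.01 and 0.61. Prox1, shared by dentate granule cells and caudal interneurons, had 9.27, 8.63 and 9.25 CPM in KA control and 28.3, 29.7 and 28.4 CPM in OGD control (log2 change -1.67, edgeR adjusted p = 4.05e-18). Markers of other transmitters and regions were higher in 2 and lower in 6 of 11 cases (median -0.36), and Slc18a2, the vesicular monoamine transporter, had 15.4, 15.4 and 15.4 CPM in KA control and 25.5, 23.1 and 25.05 CPM in OGD control (log2 change -0.67, edgeR adjusted p = 3.90e-09).

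Maturity genes did not move as 1 block. Mature neuron genes were higher in 6 and lower in 20 of 37 cases (median -0.32), and immature neuron genes higher in 7 and lower in 14 of 27 (median -0.19, or 0.00051 with 9 lower under total-count scaling). Genes of subunit pairs that exchange during maturation were higher in 3 and lower in 12 of 22 cases (median -0.35). Slc12a5, the chloride exporter KCC2 gained during maturation, had 199, 193 and 197 CPM in KA control, against 328, 326 and 295 CPM in OGD control (log2 change -0.69, SE 0.044, edgeR adjusted p = 2.31e-14). Slc12a2, the importer NKCC1 of young neurons, had 78.5, 79.5 and 78.3 CPM in KA control, against 98.6, 95.5 and 97.1 CPM in OGD control (log2 change -0.30, SE 0.048, edgeR adjusted p = 2.75e-06). Both transporters were lower and neither pair of groups overlapped. Grin2a, the NMDA receptor subunit that gains weight with age, had 8.31, 9.70 and 10.7 CPM in KA control, against 24.4, 28.9 and 27.4 CPM in OGD control (log2 change -1.49, SE 0.10, edgeR adjusted p = 1.86e-14). Grin2b, the early subunit, had 158, 125 and 137 CPM in KA control and 175, 175 and 187 CPM in OGD control (log2 change -0.36, SE 0.087, edgeR adjusted p = 5.75e-04), a difference not called after a trend on transcript length was removed (log2 fold change 0.023, edgeR adjusted p = 0.828) or under total-count scaling. Nefl, a neurofilament subunit, had 379, 402 and 404 CPM in KA control and 763, 832 and 782 CPM in OGD control (log2 change -1.005, edgeR adjusted p = 3.34e-18). Kcna1, a potassium channel that is also activity-listed, had 40.8, 38.8 and 39.9 CPM in KA control and 131, 128 and 136 CPM in OGD control (log2 change -1.73, edgeR adjusted p = 3.11e-21).

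Genes of young neurons showed the same mixture. Tubb3, with the values given above, was higher in KA control (log2 change 0.59, SE 0.046, edgeR adjusted p = 2.23e-12), and so was Cntn2, an axonal adhesion protein, at 169, 159.8 and 164 CPM in KA control and 102, 106 and 109 CPM in OGD control (log2 change 0.64, edgeR adjusted p = 1.24e-12). Dcx, the microtubule protein doublecortin, had 14.9, 13.8 and 14.9 CPM in KA control and 10.7, 12.9 and 13.9 CPM in OGD control and was not called (edgeR adjusted p = 0.0802), though it was under 5 of the 15 alternative settings. Sox11, a factor of newborn neurons, was lower by a small amount at 479, 499 and 488 CPM in KA control and 519, 567 and 619.8 CPM in OGD control (log2 change -0.22, edgeR adjusted p = 4.86e-04), and was not called under total-count scaling. Ina, the neurofilament alpha-internexin, fell in KA control to 454, 456 and 446 CPM, against 759.6, 782 and 764 CPM in OGD control (log2 change -0.77, edgeR adjusted p = 2.17e-16). Map2, a dendritic protein, was at 13.3, 11.3 and 15.3 CPM in KA control and 17.4, 17.8 and 14.5 CPM in OGD control, with overlapping groups (log2 change -0.32, edgeR adjusted p = 0.00740), and it was not called without KA control replicate 2 (edgeR adjusted p = 0.0996), without OGD control replicate 2 (0.0561) or under total-count scaling (0.258). Its counts were few for a gene that neurons express strongly, and the value is uncertain.

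Dividing-cell genes were a group with more members higher than lower. Of 26 tested cell-cycle genes, 16 were higher and 7 lower in KA control (median 0.75). Mcm5, a subunit of the replicative helicase, had 9.21, 10.3 and 9.35 CPM in KA control and 2.83, 3.10 and 2.38 CPM in OGD control (log2 change 1.8, SE 0.13, edgeR adjusted p = 1.58e-13). Mcm2, of the same helicase, had 11.6, 12.7 and 13.03 CPM in KA control and 4.43, 3.94 and 4.70 CPM in OGD control (log2 change 1.52, edgeR adjusted p = 2.40e-13). Bub1b, a mitotic checkpoint kinase, was lower at 4.10, 4.16 and 3.93 CPM in KA control, against 22.6, 22.7 and 22.1 CPM in OGD control (log2 change -2.46, edgeR adjusted p = 2.67e-19). Mki67, the usual proliferation marker, was not called at 1.74, 2.49 and 1.84 CPM in KA control and 1.22, 1.73 and 2.02 CPM in OGD control. The helicase genes and the checkpoint gene thus differed in direction, and the summed level of the list, where Ccnd2 and Pcna supply most of the counts, was 433 to 453.2 CPM in KA control and 518.6 to 539.3 CPM in OGD control. Progenitor and radial glia genes were higher in 3 and lower in 14 of 22 cases (median -0.47). Nes, the progenitor intermediate filament nestin, had 27.3, 25.2 and 26.1 CPM in KA control and 14.4, 14.7 and 15.03 CPM in OGD control (log2 change 0.83, edgeR adjusted p = 7.66e-11). Sox2, a progenitor factor, had 31.3, 31.7 and 32.4 CPM in KA control and 91.1, 97.3 and 101 CPM in OGD control (log2 change -1.60, edgeR adjusted p = 5.12e-21), and Sox9, shared with astrocytes, 4.55, 6.23 and 5.37 CPM and 29.1, 32.4 and 34.9 CPM (log2 change -2.56, edgeR adjusted p = 2.55e-19).

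Among synaptic genes the presynaptic ones were more often lower, while the share of postsynaptic ones lower was close to that of all tested genes. Release genes were higher in 3 and lower in 21 of 32 cases (median -0.40). In 12 of the 32 all KA-experiment libraries lay below all OGD-experiment libraries, against 7.92% of all genes tested. Syp, the vesicle protein synaptophysin, had 742, 719 and 756 CPM in KA control, against 1386, 1359.9 and 1305 CPM in OGD control (log2 change -0.87, SE 0.042, edgeR adjusted p = 2.35e-17). Sv2c, a vesicle glycoprotein, had 30.6, 30.3 and 33.1 CPM in KA control, against 100.1, 103 and 105 CPM in OGD control (log2 change -1.72, edgeR adjusted p = 2.09e-21). Postsynaptic scaffold and adhesion genes were higher in 9 and lower in 10 of 29 cases (median -0.10, or 0.0821 under total-count scaling). Named from this list were Baiap2, a scaffold of dendritic spines, at 1.91, 2.10 and 2.45 CPM in KA control and 20.6, 20.9 and 21.6 CPM in OGD control (log2 change -3.28, edgeR adjusted p = 5.14e-20), and Homer1, a scaffold with a short activity-induced form, at 9.89, 11.6 and 9.25 CPM and 58.3, 67.2 and 74.3 CPM (log2 change -2.70, edgeR adjusted p = 5.18e-21). Counts per gene do not separate such forms.

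Receptors and channels included genes in both directions. Glutamate receptor subunits were higher in 5 and lower in 15 of 23 cases (median -0.36), GABA receptor subunits higher in 2 and lower in 9 of 16 (median -0.27), and sodium and potassium channels higher in 9 and lower in 19 of 37 (median -0.19). Grm2, a presynaptic metabotropic receptor, was higher at 83.4, 81.8 and 88.3 CPM in KA control, against 29.6, 30.97 and 31.9 CPM in OGD control (log2 change 1.45, edgeR adjusted p = 7.79e-19). Grik3, a subunit of the receptors that kainic acid activates, was at 123, 121 and 127 CPM in KA control, against 228, 222 and 230.1 CPM in OGD control (log2 change -0.88, edgeR adjusted p = 8.19e-16). Gabra2, a GABA receptor subunit of young neurons, had 55.4, 52.6 and 51.9 CPM in KA control and 112, 118 and 111 CPM in OGD control (log2 change -1.09, edgeR adjusted p = 1.29e-17). Kcnj4, an inward rectifier channel, had 45.00, 42.7 and 48.1 CPM in KA control and 174, 173 and 163 CPM in OGD control (log2 change -1.91, edgeR adjusted p = 1.44e-22).

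**Figure D3:**
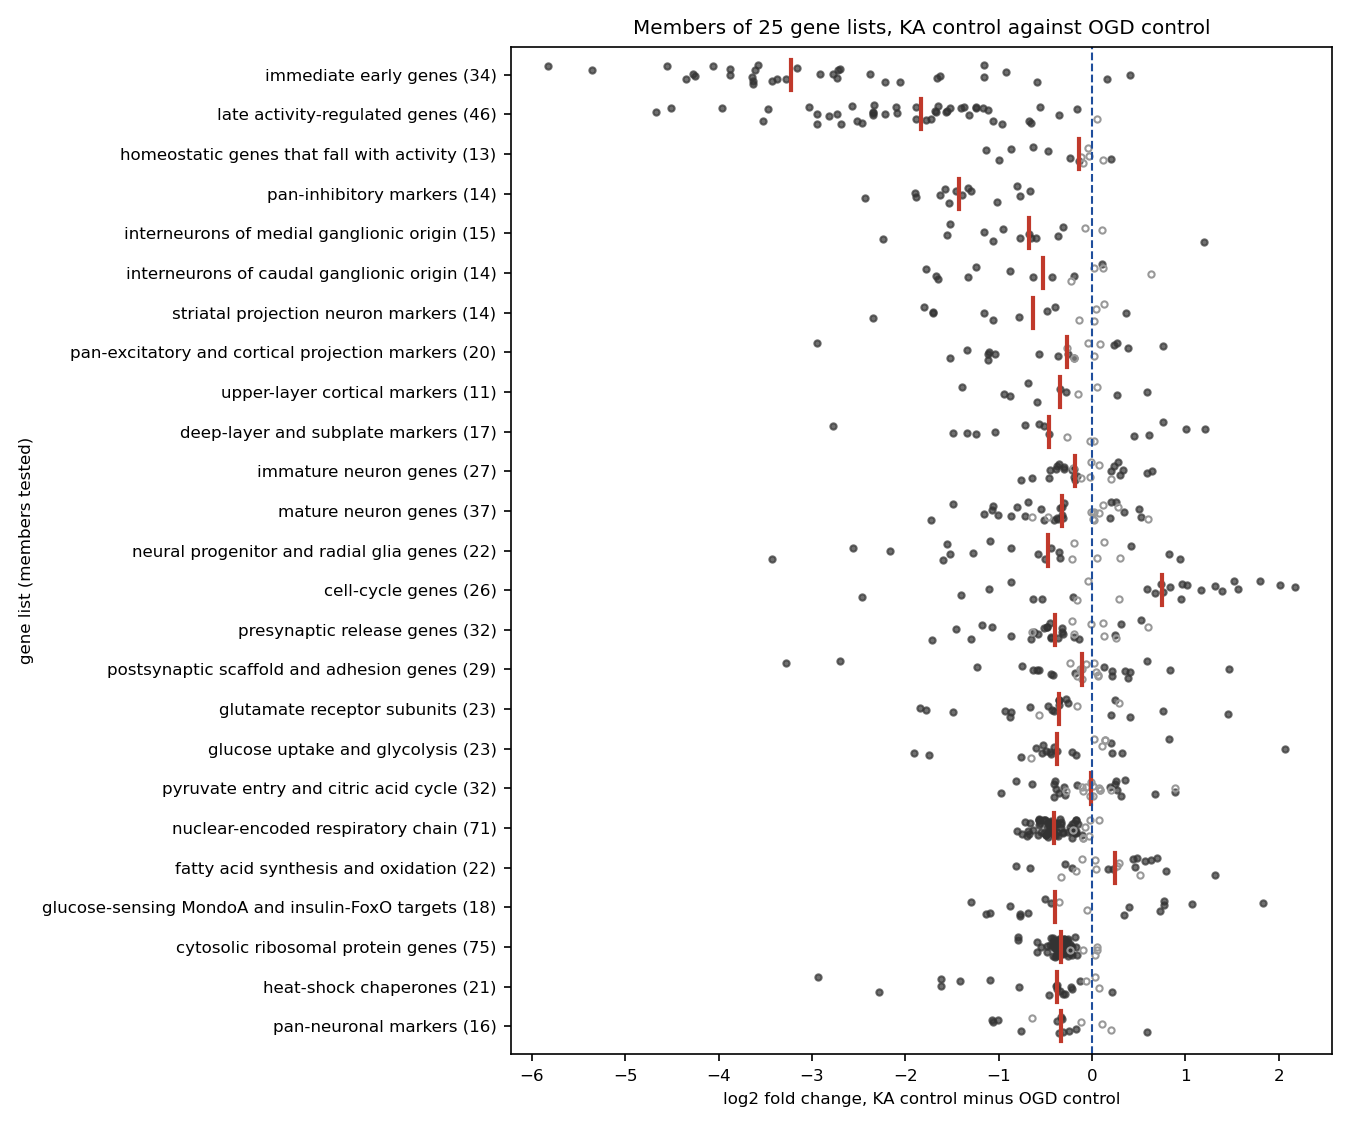
Log2 fold change of KA control minus OGD control for the tested members of 25 gene lists, 1 point per gene, filled where called at an adjusted p under 0.05 and open where not, with a red bar at the list's median and a dashed line at the median of all 13139 tested genes. Immediate early genes lie furthest left (median -3.22), and cell-cycle genes have the highest median (0.75).

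In metabolism, fuel uptake differed strongly at a few genes. Slc2a3, the neuronal glucose transporter GLUT3, had 281, 294 and 295 CPM in KA control, against 1062, 1107 and 1103 CPM in OGD control (log2 change -1.91, SE 0.044, edgeR adjusted p = 2.75e-25). Slc16a1, the lactate and pyruvate transporter MCT1, had 53.4, 53.3 and 54.99 CPM in KA control, against 179, 183 and 181 CPM in OGD control (log2 change -1.75, SE 0.054, edgeR adjusted p = 4.82e-22). Hk2, the inducible hexokinase that traps glucose, went the other way, with 48.2, 50.2 and 46.9 CPM in KA control, against 11.8, 11.4 and 11.7 CPM in OGD control (log2 change 2.06, SE 0.10, edgeR adjusted p = 6.30e-17). None of the 3 overlapped between groups. The other glycolysis genes were lower more often than higher: over the whole list of 23, 5 were higher and 13 lower (median -0.37). Hk1, the constitutive hexokinase, was higher by a small amount, at 26.3, 22.1 and 25.7 CPM in KA control and 21.8, 22.2 and 20.3 CPM in OGD control with overlapping groups (log2 change 0.20, edgeR adjusted p = 0.0177), and the call was lost under 5 alternatives, among them without KA control replicate 1 (edgeR adjusted p = 0.0959), without KA control replicate 3 (0.0757) and without OGD control replicate 3 (0.0979). Ldhb, the lactate dehydrogenase subunit that favours lactate use, had 197, 189 and 190.4 CPM in KA control and 326, 316 and 334 CPM in OGD control (log2 change -0.76, edgeR adjusted p = 4.99e-15). Slc2a1, the transporter GLUT1, had 38.1, 46.4 and 43.9 CPM in KA control and 62.9, 64.9 and 54.00 CPM in OGD control (log2 change -0.50, edgeR adjusted p = 3.34e-06).

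Entry of pyruvate into the citric acid cycle was split. Of 32 genes, 8 were higher and 11 lower (median -0.015, or 0.17 under total-count scaling). Pdk1, a kinase that shuts pyruvate dehydrogenase, was higher at 90.3, 93.2 and 88.7 CPM in KA control, against 49.7, 52.8 and 44.8 CPM in OGD control (log2 change 0.89, edgeR adjusted p = 6.22e-14), while Pdk3, another such kinase, had 24.7, 30.3 and 26.3 CPM in KA control and 53.5, 50.8 and 55.9 CPM in OGD control (log2 change -0.97, edgeR adjusted p = 1.84e-13). Mdh1, the cytosolic malate dehydrogenase, had 526, 531 and 517 CPM in KA control and 805, 826 and 835 CPM in OGD control (log2 change -0.65, edgeR adjusted p = 1.14e-14). Pdk1, Ndrg1, Narf and Hk2 also stand in the list of genes induced at low oxygen, which was higher in 11 and lower in 8 of 27 cases (median -0.099, or 0.0864 under total-count scaling). Ndrg1, a stress-responsive gene of that list, had 167, 164 and 161 CPM in KA control and 73.3, 76.9 and 76.5 CPM in OGD control (log2 change 1.12, edgeR adjusted p = 3.72e-19), and Narf had 136, 138 and 133 CPM and 58.1, 64.99 and 60.2 CPM (log2 change 1.15, edgeR adjusted p = 1.51e-18).

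**Figure D4:**
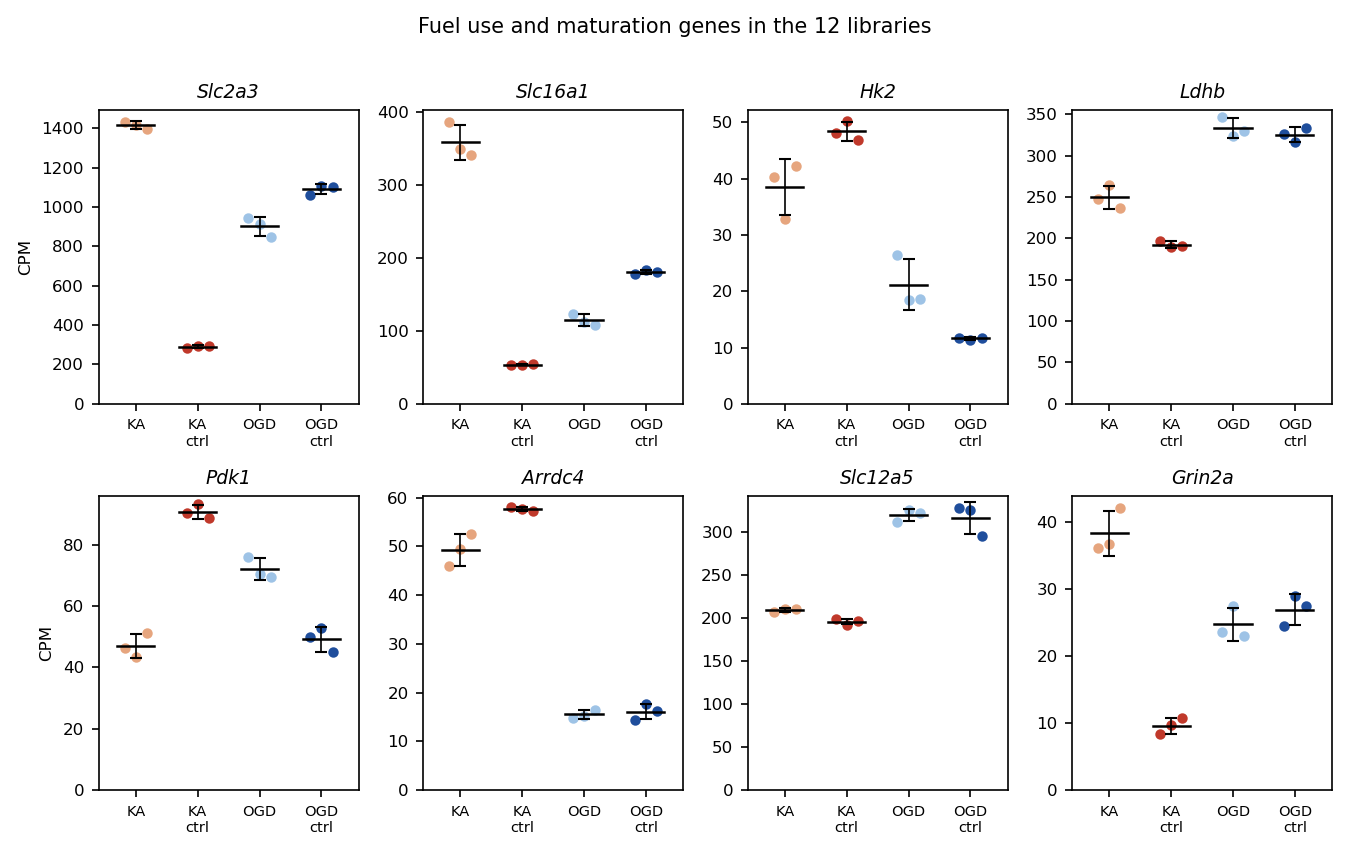
CPM of 6 genes of fuel use and 2 of neuronal maturation (Slc12a5, Grin2a) in the 12 libraries, grouped as KA, KA control, OGD and OGD control, with points for libraries and bars for the mean and SD of 3. Slc2a3 averaged 289.9 CPM in KA control and 1091 CPM in OGD control, and Hk2 averaged 48.4 CPM and 11.6 CPM.

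Genes of the respiratory chain and of the cytosolic ribosome were lower in most members. Of 71 nuclear-encoded respiratory chain genes 64 were lower and 0 higher (median log2 fold change -0.40), with 30 of 36 of complex I, 8 of 9 of complex III, all 10 of complex IV and all 15 of the ATP synthase. Log2 changes of single members ran from -0.80 to 0.073. The medians of these complexes ran from -0.32 for complex III to -0.50 for complex IV. Cox6c, a small subunit of complex IV, had 176, 181 and 179 CPM in KA control and 269, 278 and 279.9 CPM in OGD control (log2 change -0.63, edgeR adjusted p = 8.04e-14), and Atp5d, of the ATP synthase, 174, 174 and 183 CPM and 312, 313 and 299 CPM (log2 change -0.80, edgeR adjusted p = 5.05e-13). Of 75 ribosomal protein genes 70 were lower and 0 higher (median -0.33), with log2 changes from -0.80 to 0.053. In the same 70 the KA control libraries lay below all 9 others, against 20.9% of all genes tested. Rps29, a protein of the small subunit, had 229.9, 247 and 252 CPM in KA control and 322, 346 and 349.6 CPM in OGD control (log2 change -0.48, edgeR adjusted p = 5.59e-10). Under total-count scaling 46 ribosomal and 47 respiratory chain genes were lower, with medians of -0.15 and -0.22, so the size of both shifts depends on the scaling. Ribosomal protein genes have many processed copies, and reads shared with copies are uncertain.

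Glucose-sensing genes and the genes held down by insulin were mixed. Of 18 tested, 7 were higher and 9 lower. Arrdc4, an arrestin-domain gene induced by the glucose sensor MondoA, was higher at 58.03, 57.7 and 57.2 CPM in KA control, against 14.4, 17.6 and 16.2 CPM in OGD control (log2 change 1.83, SE 0.068, edgeR adjusted p = 5.04e-20). Txnip, the best-known target of that sensor, was too low to be tested, at 0.506, 0.515 and 0.767 CPM in KA control and 0, 0.0597 and 0.0611 CPM in OGD control. Arrdc3 was also higher, at 185, 199 and 194 CPM in KA control and 86.1, 91.2 and 97.5 CPM in OGD control (log2 change 1.07, edgeR adjusted p = 6.83e-18). For Arrdc4 and Arrdc3 the KA libraries too were above all OGD-experiment libraries, with averages of 49.3 and 259.7 CPM in KA, against 15.5 and 132 CPM in OGD. Irs2, an insulin receptor substrate, was lower at 42.7, 39.5 and 42.01 CPM in KA control, against 99.00, 106 and 100.3 CPM in OGD control (log2 change -1.30, edgeR adjusted p = 2.60e-18).

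Lipid and amino acid pathways differed by member. Cholesterol synthesis genes were higher in 4 and lower in 14 of 23 cases (median -0.17, or 0.0115 under total-count scaling). Sc5d, a late enzyme of the pathway, had 128, 130.2 and 128 CPM in KA control and 265, 274 and 287 CPM in OGD control (log2 change -1.10, edgeR adjusted p = 1.76e-19). Fatty acid genes were higher in 10 and lower in 4 of 22 cases (median 0.25). Srebf1, the factor that drives lipid synthesis, had 43.8, 44.1 and 43.1 CPM in KA control and 27.3, 24.5 and 24.3 CPM in OGD control (log2 change 0.79, edgeR adjusted p = 7.73e-12). Amino acid synthesis and ATF4 target genes were higher in 13 and lower in 13 of 31 cases (median -0.033, or 0.152 under total-count scaling). Psat1, a serine synthesis enzyme, had 12.98, 13.9 and 13.6 CPM in KA control and 11.3, 10.03 and 11.4 CPM in OGD control (log2 change 0.31, edgeR adjusted p = 0.00210). Pck2, the mitochondrial phosphoenolpyruvate carboxykinase, had 39.8, 41.05 and 41.5 CPM in KA control and 18.4, 14.7 and 13.2 CPM in OGD control (log2 change 1.42, edgeR adjusted p = 3.12e-15). Asns, asparagine synthetase and the best-known ATF4 target, had 510.2, 520.2 and 521 CPM in KA control and 479, 469 and 487 CPM in OGD control, a difference that passed the test narrowly (log2 change 0.11, edgeR adjusted p = 0.0214). It was not called without KA control replicate 2 (edgeR adjusted p = 0.0577), KA control replicate 3 (0.0623) or OGD control replicate 2 (0.0877), nor after the length trend was removed (0.225).

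Hormone and stress response lists each had more members lower than higher in KA control, though not always most of them. Glucocorticoid and thyroid hormone genes were higher in 4 and lower in 10 of 18 cases (median -0.24). Nr3c1, the glucocorticoid receptor, had 47.1, 40.8 and 38.99 CPM in KA control and 16.4, 16.7 and 18.4 CPM in OGD control (log2 change 1.29, edgeR adjusted p = 5.29e-14), and Fkbp5, a target of it, 64.04, 69.1 and 63.98 CPM and 43.8, 46.01 and 42.03 CPM (log2 change 0.58, edgeR adjusted p = 3.80e-10). Retinoic acid genes were higher in 2 and lower in 5 of 11 cases (median -0.17, or 0.0198 under total-count scaling), with Aldh1a3, an enzyme that makes retinoic acid, at 4.89, 3.91 and 4.60 CPM in KA control and 17.03, 19.2 and 14.4 CPM in OGD control (log2 change -1.93, edgeR adjusted p = 2.02e-13). Antioxidant genes were higher in 6 and lower in 12 of 27 cases (median -0.17, or 0.0106 under total-count scaling). Cat, the peroxide-degrading catalase, had 76.5, 74.7 and 74.3 CPM in KA control and 40.1, 40.04 and 35.9 CPM in OGD control (log2 change 0.96, edgeR adjusted p = 9.79e-16). Heat-shock chaperones were higher in 1 and lower in 17 of 21 cases (median -0.37), and endoplasmic reticulum chaperones higher in 3 and lower in 14 of 22 (median -0.34). Hspa8, the constitutive HSC70, had 2864, 2947 and 2973 CPM in KA control and 4799, 5049 and 5229 CPM in OGD control (log2 change -0.78, edgeR adjusted p = 8.42e-17). Axon injury and p53 target genes were higher in 4 and lower in 18 of 26 cases (median -0.73), but 5 of them, such as Atf3 and Jun, are activity-listed, and 13 of the 21 others were lower (median -0.30).

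Markers of cells other than neurons did not all move the same way. Microglial markers summed to 17.81 to 20.54 CPM in KA control and 17.59 to 21.72 CPM in OGD control, with 0 of 7 tested members called by edgeR, 0 lower by DESeq2, 0 at an unadjusted p under 0.05, and Ptprc at 0 in both. Oligodendrocyte markers summed to 37.66 to 40.28 CPM in KA control and 38.3 to 40.52 CPM in OGD control, with 1 of 6 lower. That gene was Mog, a myelin glycoprotein, at 6.29, 6.10 and 6.08 CPM in KA control and 7.72, 7.34 and 8.61 CPM in OGD control (log2 change -0.36, edgeR adjusted p = 0.00748), and it was not called without OGD control replicate 3 (edgeR adjusted p = 0.0594) or under total-count scaling (0.188). Astrocyte markers summed to 426.2 to 438.8 CPM in KA control and 530.7 to 565.2 CPM in OGD control, with 2 of 12 higher and 6 lower. Glul and Atp1b2, singled out after their values were seen, supplied most of these counts. Glul was not called, and Atp1b2 was lower (log2 change -0.49, edgeR adjusted p = 5.24e-11). The 2 members called higher were Aqp4 (log2 change 0.77) and Gja1 (0.20). Gfap, the astrocyte filament, was at 1.12, 1.42 and 1.23 CPM in KA control and 0.917, 1.07 and 0.916 CPM in OGD control and not called. Fibroblast and mural markers summed to 8.37 to 9.017 CPM in KA control and 25.48 to 28.04 CPM in OGD control, with 0 of 8 higher and 5 lower. In the treated libraries they summed to 25.93 to 26.78 CPM in KA and 19.04 to 23.62 CPM in OGD, so the KA control sums stood alone. The largest part of the sums in the other groups came from Col1a1. By gene, KA control lay below all 9 other libraries in 4 of the 8, against 20.9% of all genes tested. Dcn, of the same list, went the other way without being called (log2 change 0.54, edgeR adjusted p = 0.234). Col1a1, a fibrillar collagen, had 2.19, 2.02 and 1.94 CPM in KA control and 14.4, 12.4 and 12.95 CPM in OGD control (log2 change -2.68, edgeR adjusted p = 4.43e-18). Blood, ependymal and choroid plexus markers summed to 7.814 to 10.63 CPM in KA control and 36.74 to 41.41 CPM in OGD control, with 3 of 4 lower and the 6 haemoglobin genes at 0 in both. In the treated libraries they summed to 15.55 to 19.31 CPM in KA and 32.03 to 36.38 CPM in OGD. Ttr, the transthyretin gene of the choroid plexus, had 2.81, 2.45 and 4.19 CPM in KA control and 16.7, 19.9 and 18.1 CPM in OGD control (log2 change -2.55, edgeR adjusted p = 1.14e-15), and Foxj1, of ciliated cells, 4.999, 4.29 and 4.75 CPM and 17.4, 19.2 and 16.9 CPM (log2 change -1.94, edgeR adjusted p = 1.67e-16). Endothelial markers summed to 3.993 to 4.831 CPM in KA control and 6.722 to 7.575 CPM in OGD control, with 2 of 3 lower. The part of these cells in the results above was not tested.

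Rises were ranked by the naming rule of the methods, which leaves out weakly expressed genes and genes whose control groups overlapped. The 8 largest under that rule were 2410018M08Rik, Slc16a9, Pus7l, Parp16, Engase, Mfsd9, Zc3hav1l and Hk2. Of these, only Hk2 was in a gene list used here. Larger rises lay outside the rule, and the highest log2 change of any tested gene was 3.53. Mcm3, of the cell-cycle list and also outside it, had a log2 change of 2.17, above only the 2.06 of Hk2 among the genes given here. Slc16a9, a carnitine exporter of the monocarboxylate transporter family, had 8.88, 9.96 and 9.40 CPM in KA control, against 2.22, 1.79 and 1.59 CPM in OGD control (log2 change 2.36, SE 0.14, edgeR adjusted p = 5.36e-15). Parp16, an ADP-ribosyltransferase of the endoplasmic reticulum, had 11.2, 10.2 and 9.30 CPM in KA control, against 2.22, 2.03 and 2.02 CPM in OGD control (log2 change 2.29, SE 0.14, edgeR adjusted p = 3.59e-15). The folds of the 8 genes ranked by the rule ran from 4.18 to 5.14, well short of the 19.3 to 56.6 of the 8 largest drops ranked in the same way.

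Positions of genes that the comparison turns on, as the GENCODE M21 annotation of GRCm38 gives them for the whole gene, were chr12:85473890-85477273 for Fos, chr19:4984355-4990316 for Npas4, chr2:109674700-109727007 for Bdnf, chr2:70553072-70602014 for Gad1, chr2:22622205-22693874 for Gad2, chr2:164960802-164999731 for Slc12a5, chr6:122727809-122801640 for Slc2a3 and chr6:82725025-82774454 for Hk2. The library kit named in the labels does not mark strand, so reads of a gene and of an antisense or overlapping partner cannot be told apart. Partners that share exon bases were annotated for Junb (Prdx2), Jun (Junos), Bdnf (Gm45346), Nrn1 (Fars2), Csrnp1 (1700019L13Rik), Slc32a1 (Gm14205), Nefl (Nefm), Ina (Nt5c2), Syp (Gm14703), Mdh1 (Wdpcp), Cox6c (Vps13b), Atp5d (Cbarp), Hk1 (Hk1os), Prox1 (Prox1os) and Six3 (Six3os1), and for some of the less central genes named. Values of these genes are uncertain to that extent. None was annotated for Fos, Fosb, Npas4, Nr4a1, Egr1, Gad1, Gad2, Sst, Slc17a7, Slc2a3, Slc16a1 or Hk2.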

How the data were processed

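The 12 RNA-seq libraries of primary neurons were analysed from 1 table that the authors deposited, which holds raw counts by gene symbol without any normalization. Libraries were made from total RNA with Illumina's TruSeq RNA v2 kit, per the labels' protocols. bcl2fastq 1.8.4, TopHat 1.4.1, HTSeq 0.6.1 and the mm10 build are named in the submitters' processing notes, while settings and gene annotation are not given there or in other sources used here. A spliced aligner and a gene counter of this kind usually set aside reads with several matching places or genes, which lowers genes with copies or overlapping neighbours, but whether that was done is not recorded. Column headings that read OGT were matched to the samples titled OGD by name and replicate number.

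Genes with at least 10 counts in enough libraries (edgeR's filterByExpr, minimum total 15) were scaled by TMM and fitted in edgeR 4.0.16 (R 4.3.3) with 1 mean for each of the 4 groups over the 12 libraries. The contrast KA control minus OGD control was tested by the quasi-likelihood test, with Benjamini-Hochberg adjustment over all tested genes. CPM values use TMM-scaled library sizes. Totals ran from 13260609 to 21142267 counts, and the chi-square per degree of freedom between control replicates was 1.49 to 2.89, so no pair agreed within sampling noise. In data simulated for this comparison over 12928 genes, 50 well-counted genes were changed at each fold, in random directions. There 48% of genes changed by 1.2-fold, 82% by 1.5-fold and 100% by 2-fold or 4-fold were recovered. Of the calls, 8 of 173 were genes left unchanged. Far more genes differed between the control groups than were changed there, so these rates need not hold for the data.

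The members and lists were chosen with earlier results of these data known. Named genes were the 8 called genes with the largest fold either way, if their mean logCPM reached 2 and the groups did not overlap, up to 3 called members with the smallest adjusted p per list, and a fixed set of marker genes, some of which are not reported here. Genes outside that rule were chosen after their values were seen: Jund, Klf6, Klf10, Inhba, Tac1, Sp8, Dlx2, Nkx2-1, Satb1, Neurod1, Neurod6, Emx1, Crym, Ntsr1, Ccnd2, Pcna, Mcm3, Ptprc, Glul, Aqp4, Gja1, Dcn, Meis2, Vegfa, Cebpb, Ddx3x, Xist and Eif2s3y. Alternatives were DESeq2 1.42.0, other scalings and filters, a replicate block, the 6 control libraries alone, genes with 1 annotated transcript, removal of a length trend, and each control library left out. Gene positions came from GENCODE M21 (22496 of 22899 symbols matched, 943 through an older symbol) and promoters from RefSeq on GRCm38.p6.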

Additional observations from a re-analysis of the deposited data

How the results depend on the processing

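Across 15 alternative settings, 2362 of 2386 estimates for 163 named genes kept their side of the threshold. They kept their direction as well, except that a change of direction was not counted where neither setting called the gene. Of the others, 16 were no longer called, 6 became called and 2 changed direction: Slc17a7 under total-count scaling (log2 fold change 0.14) and Grin2b with the length trend removed (0.023), and the cause was not tested. DESeq2 called 4056 genes higher and 4339 lower, total-count scaling 6155 and 3132 (66.3% of calls higher, against 50.2%), no count filter 4741 and 4649, and the 6 control libraries alone 4721 and 4539. Total-count scaling left 9 of the immature neuron genes lower, against 14, and 46 of the ribosomal protein genes, against 70.

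Keeping only genes with 1 annotated transcript cut the genes tested to 7393, and with them the counts: 2777 genes were higher and 2677 lower, with 21 of 22 immediate early, 4 of 9 excitatory, 8 of 8 inhibitory, 9 of 17 immature, 10 of 12 mature, 7 of 8 glycolysis and 40 of 45 respiratory chain genes lower.

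Leaving out 1 control library at a time gave 4277 to 4376 genes higher and 4221 to 4382 lower, 31 to 32 immediate early genes lower, 44 to 45 late genes, 10 to 11 excitatory, 14 inhibitory, 13 to 14 immature, 19 to 20 mature, 13 to 14 glycolysis, 62 to 64 respiratory chain and 69 to 71 ribosomal genes lower, and 14 to 16 cell-cycle genes higher. With replicate number as a block, 4482 genes were higher and 4430 lower. Same-numbered libraries did not deviate together (r = 0.0227, 0.0047 and -0.018 across genes), so the numbers are not taken as pairs. Across settings, 37 of 690 list counts moved by over 1.5 times, 6 of them outside the 1-transcript setting. Genes under about 3 counts per library, between 0.129 and 0.229 CPM, could not be compared, and intervals of counting error do not cover variation between cultures.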

Other observations

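The following transcripts from the sex chromosomes, which were not described above, did not move together. Ddx3y, an RNA helicase gene of the Y chromosome, had 88.4, 97.3 and 91.3 CPM in KA control, against 411, 420.1 and 463 CPM in OGD control (log2 change -2.22, edgeR adjusted p = 2.83e-25). Uty, a Y-linked histone demethylase gene, had 19.998, 21.7 and 18.9 CPM in KA control and 36.2, 36.04 and 35.6 CPM in OGD control (log2 change -0.83, edgeR adjusted p = 5.89e-12). Kdm5d, another Y-linked demethylase gene, was higher at 35.5, 32.7 and 33.5 CPM in KA control, against 27.7, 22.6 and 27.9 CPM in OGD control (log2 change 0.38, edgeR adjusted p = 6.87e-05). Xist, the non-coding RNA that silences an X chromosome, had 138, 132 and 127 CPM in KA control and 111, 120.1 and 133 CPM in OGD control with overlapping groups and was not called (edgeR adjusted p = 0.122). Eif2s3y, also Y-linked, had 65.9, 68.1 and 68.02 CPM in KA control and 61.9, 58.6 and 65.7 CPM in OGD control and was not called (edgeR adjusted p = 0.0605). Ddx3x, the X-linked relative of Ddx3y, had 546, 586 and 573 CPM in KA control and 846, 895 and 942 CPM in OGD control (log2 change -0.65, edgeR adjusted p = 6.91e-12). The Ddx3y and Ddx3x genes are alike in sequence, so their counts are uncertain where reads match both.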
